A study of Mus musculus with 10 samples.

Results

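The transcription factor p53 and 9 of its induced genes were followed through 10 libraries of embryonic mouse cortex. The 10 genes were taken as a named list (Trp53, Mdm2, Ccng1, Cdkn1a, Gadd45a, Plk2, Bax, Phlda3, Trp53inp1 and Zmat3). Each was found once, by its Entrez gene ID, among the 27178 genes of the count table, and all 10 had counts in every library and were among the 15371 genes tested.

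The study compared cortical cells that lack or overproduce CCN1, a secreted matricellular protein, or that overproduce GPC4, a cell-surface heparan sulfate proteoglycan. Every library held mRNA of GFP+ cells purified by flow sorting after in utero electroporation of a PiggyBac transposase plasmid (3 µg/µl) with a PiggyBac plasmid (1.5 µg/µl), which inserts its cargo into the genome. At E17.5 the cells came from C57BL/6 embryos electroporated at E14.5 with the control plasmid PB-Ctrl. These were either wildtype (WT) or carried Nestin-Cre and Ccn1 fl/fl (CcKO), a deletion driven in the neural lineage. At E15.5 the cells came from wildtype ICR embryos electroporated at E13.5. They carried the control plasmid again, or a plasmid for CCN1 (PB-CCN1) or for GPC4 (PB-GPC4). Each of the 5 groups had 2 libraries, and the labels do not say whether these came from separate embryos or litters, and p-values reflect only how these libraries vary. Strain, age and day of electroporation all differ between the experiments at E17.5 and E15.5, so levels across them are given side by side and not tested.

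As background, p53 is a transcription factor that MDM2 keeps scarce by marking it for destruction. DNA damage and other stresses stabilise it, and it then binds paired copies of a short half-site and switches on genes for cell cycle arrest, repair, death and its own feedback. In the embryonic cortex, p53 activation in neural progenitors is known for arrest and loss of these cells, for example after genotoxic stress or mitotic delay.

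To show what p53 could bind close to the start of these genes, the 250 bases upstream of each RefSeq start (GRCm38.p6) were searched for the p53 half-site and for full sites. A full site was counted as a pair of half-sites with a spacer of 0 to 13 bases and at most 1 mismatch in all, and the motif reads the same on both strands. Windows were found for 8 of the 10 genes, with 2 for Cdkn1a. Of these 9 windows, 6 held an exact half-site and 3 held a full site. Among the 32851 such windows of all genes, 7.13% held a half-site and 0.898% a full site. The 3 windows with a full site, in Cdkn1a, Ccng1 and Bax, are printed with the matches in capitals. They are followed by that of Plk2, the only one of the 10 genes that was called with a plasmid.

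Cdkn1a (chr17:29090729-29090978, plus strand): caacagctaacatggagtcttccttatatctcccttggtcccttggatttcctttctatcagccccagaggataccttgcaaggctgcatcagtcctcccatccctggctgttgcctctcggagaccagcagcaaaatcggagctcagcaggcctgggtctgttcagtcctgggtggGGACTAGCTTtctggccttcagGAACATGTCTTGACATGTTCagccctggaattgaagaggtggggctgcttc

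Ccng1 (chr11:40755287-40755536, minus strand): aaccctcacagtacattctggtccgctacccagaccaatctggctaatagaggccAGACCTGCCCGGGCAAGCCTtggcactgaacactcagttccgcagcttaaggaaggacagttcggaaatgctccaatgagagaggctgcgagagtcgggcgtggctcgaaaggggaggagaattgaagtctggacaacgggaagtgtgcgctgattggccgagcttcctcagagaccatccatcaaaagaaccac

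Bax (chr7:45466899-45467148, minus strand): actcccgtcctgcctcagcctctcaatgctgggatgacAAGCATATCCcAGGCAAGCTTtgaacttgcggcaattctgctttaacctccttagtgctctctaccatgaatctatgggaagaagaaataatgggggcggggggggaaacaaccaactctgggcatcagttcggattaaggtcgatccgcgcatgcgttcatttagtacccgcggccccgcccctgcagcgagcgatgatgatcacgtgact

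Plk2 (chr13:110394794-110395043, plus strand): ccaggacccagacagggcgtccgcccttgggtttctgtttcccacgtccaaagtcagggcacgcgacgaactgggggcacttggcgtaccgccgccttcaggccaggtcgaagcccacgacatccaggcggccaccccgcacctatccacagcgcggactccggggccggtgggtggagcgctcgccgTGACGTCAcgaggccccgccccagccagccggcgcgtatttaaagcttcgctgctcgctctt

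The printed Cdkn1a window held 2 overlapping full matches. One had a spacer of 12 bases and 0 mismatches at bases 73 to 42 before that start, the other no spacer and 1 mismatch at bases 51 to 32. The second Cdkn1a window (chr17:29093519-29093768, plus strand), at another RefSeq start, held 0 half-sites and 0 full sites. The Ccng1 match had a spacer of 0 bases and 1 mismatch, at bases 195 to 176 before the start. The Bax match had a spacer of 1 base and 1 mismatch, at bases 212 to 192. The Plk2 window held none of these. Its capitals mark TGACGTCA, the palindromic cAMP response element, which was picked after the sequence was seen and occurred in 1.55% of all windows. A match is a description of letters, and sites outside these windows, such as the known p53 sites in an intron of Mdm2, were not searched.

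Total counts were between 22505945 and 30825498 per library. The targeted genes followed the labels. Ccn1 stood at 17.7 and 12.1 CPM (counts scaled to library size with TMM factors) in WT against 0.669 and 3.12 in CcKO, and at 7099 and 7004 with PB-CCN1 against 50.5 and 57.4 with PB-Ctrl. Gpc4 stood at 5118 and 5004 CPM with PB-GPC4 against 70.6 and 66.1 with PB-Ctrl. The sorted cells carried cortical markers, with summed levels of 8526 to 9319 CPM for 9 neuronal genes and 1015 to 1263 CPM for 8 progenitor genes. Marker lists of microglia, vessels, erythroid cells and meninges summed to at most 16.8 CPM in any library, and that of interneurons to at most 78.9 CPM.

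Per gene length, the members fell into 2 ranges that kept apart in all 10 libraries (FPKM, counts scaled by gene length and library total, as deposited by the authors). Bax (95.9 to 147 FPKM), Plk2 (47.7 to 129), Trp53 (72.4 to 81.7), Mdm2 (35.8 to 45.3) and Trp53inp1 (13.02 to 25.7) stood above the other 5 genes. Those were Zmat3 (5.41 to 8.42 FPKM), Ccng1 (6.17 to 8.75), Phlda3 (2.43 to 8.09), Cdkn1a (4.06 to 5.83) and Gadd45a (3.50 to 6.21). Among these 5, the ranges overlapped except those of Ccng1 and Cdkn1a. Within each library, Ccng1 and Zmat3 both stood above Cdkn1a and Gadd45a. Cdkn1a, the p53 target most often used as a marker of its activity, ranked 8 to 10 of 10 in every group.

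**Figure D1:**
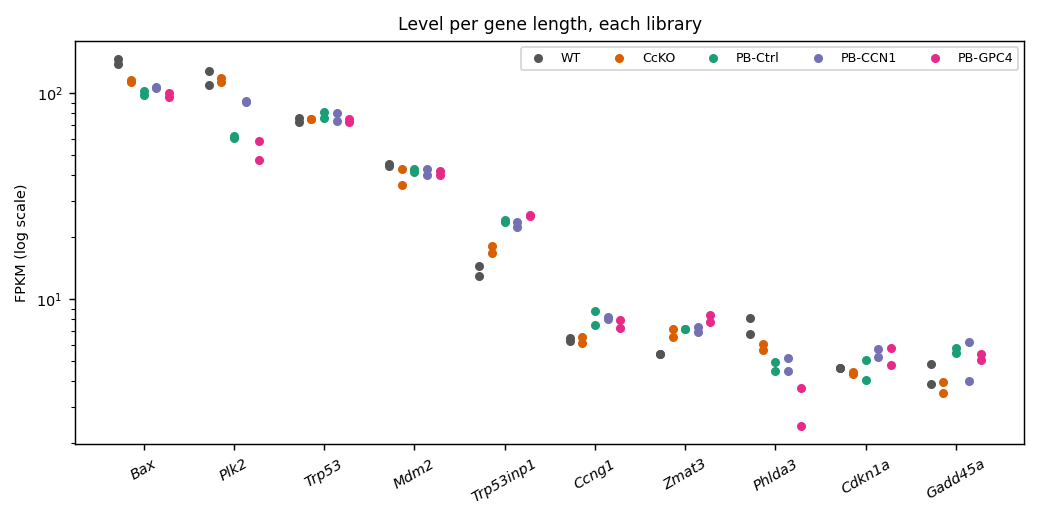
FPKM of the 10 genes (log axis) in each of the 10 libraries, coloured by group. Trp53inp1 and the 4 genes to its left stay at or above 13.02 FPKM in every library, and the 5 to its right stay at or below 8.75.

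The genes were first read in the order of their roles, starting with Trp53, which encodes the factor itself. Its level was 134 and 140 CPM in WT and 139 and 140 in CcKO. In the E15.5 libraries it was 151 and 141 CPM with PB-Ctrl, 152 and 139 with PB-CCN1, and 138 and 142 with PB-GPC4. These groups overlap one another within each experiment, and the highest library was 1.13 times the lowest, the smallest spread of the 10 genes. In edgeR's quasi-likelihood test, no comparison called Trp53, with log2 fold changes between -0.06 (PB-GPC4 over PB-Ctrl, 95% interval -0.17 to 0.06) and 0.05 (PB-CCN1 over PB-GPC4, -0.07 to 0.16). The mRNA level says nothing of the stability of the protein, through which p53 is mainly controlled.

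Mdm2 encodes the ubiquitin ligase that holds p53 down and is itself induced by it. Its level was 132 and 135 CPM in WT and 130 and 109 in CcKO. Both CcKO libraries lay below both WT libraries, but one by a small margin. The log2 fold change was -0.17 (SE 0.07, edgeR adjusted p = 0.0495). The call rested on CcKO replicate 2: without it, the log2 fold change was -0.06 (adjusted p = 0.554), and without CcKO replicate 1 the call stood (adjusted p = 0.000555). It was also lost without WT replicate 1 (adjusted p = 0.0973), WT replicate 2 (0.212), PB-CCN1 replicate 2 (0.0571) or PB-GPC4 replicate 1 (0.0615). DESeq2 (0.0827), limma (0.116), each experiment fitted alone (0.0687), non-robust edgeR (0.0663) and relative log expression size factors (0.0502) missed it too, so the call passed in 8 of 18 alternatives. At E15.5 the 6 libraries held 122 to 132 CPM in overlapping groups, and the 3 log2 fold changes lay between -0.01 and 0.02.

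Ccng1, the cyclin G1 gene, whose product works with a phosphatase to activate MDM2, was at 21.6 and 22.2 CPM in WT and 21.4 and 23.0 in CcKO, which overlap. It was at 30.2 and 25.9 CPM with PB-Ctrl, 28.2 and 29.1 with PB-CCN1, and 28.0 and 25.7 with PB-GPC4. None of the 4 comparisons called it, with log2 fold changes between -0.06 and 0.09.

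The arrest genes were low in abundance. Cdkn1a, which encodes the CDK inhibitor p21, stood at 9.30 and 9.24 CPM in WT and 8.97 and 8.87 in CcKO. Both CcKO libraries were lower, by a log2 fold change of -0.05 (95% interval -0.40 to 0.29, edgeR adjusted p = 0.851). At E15.5 it was 8.14 and 10.2 CPM with PB-Ctrl, 11.7 and 10.7 with PB-CCN1, and 9.90 and 11.9 with PB-GPC4. Both PB-CCN1 libraries lay above both PB-Ctrl libraries, with a log2 fold change of 0.29 (95% interval -0.04 to 0.63, adjusted p = 0.515), and those of PB-GPC4 overlapped PB-Ctrl (0.26, -0.08 to 0.59, adjusted p = 0.405). These levels rest on 211 to 364 reads per library. An annotated transcript on the opposite strand, AC167363.2, shares 273 exon bases with Cdkn1a and was not found by name among the counted genes.

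Gadd45a encodes a stress protein that slows the cell cycle and takes part in DNA damage responses. Its level was 5.89 and 4.71 CPM in WT and 4.25 and 4.85 in CcKO. The level at E15.5 was 6.64 and 7.05 CPM with PB-Ctrl, 7.66 and 4.96 with PB-CCN1, and 6.28 and 6.69 with PB-GPC4. The groups overlapped in all 4 comparisons, with log2 fold changes between -0.21 and -0.04. Its counts of 108 to 204 reads gave the widest interval of the 10 genes in all 4 comparisons, the broadest running from -0.67 to 0.24. An annotated antisense RNA, E230016M11Rik, shares 337 exon bases with it, and whether strand was used in counting is not given in the sources used here.

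Plk2, a polo-like kinase gene induced by p53 and, in neurons, by synaptic activity, differed most between groups at E15.5. Its level was 173 and 169 CPM with PB-Ctrl, 257 and 260 with PB-CCN1, and 168 and 135 with PB-GPC4. Both PB-CCN1 libraries lay above the other 4, by 1.52-fold over PB-Ctrl (log2 fold change 0.60, SE 0.10, edgeR adjusted p = 0.0242) and by 1.71-fold over PB-GPC4 (0.77, SE 0.10, adjusted p = 0.00490). PB-GPC4 over PB-Ctrl gave -0.17 (SE 0.10, adjusted p = 0.397). At E17.5 it was 357 and 304 CPM in WT and 317 and 333 in CcKO, which overlap (-0.02, 95% interval -0.25 to 0.20, adjusted p = 0.902).

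The size of the Plk2 difference between PB-CCN1 and PB-Ctrl held while its call did not. Over 18 alternatives its log2 fold change stayed between 0.56 and 0.61, and it passed the threshold in 9. With every E15.5 library kept, it missed once a smooth trend over length and GC content was removed (edgeR adjusted p = 0.0892). The threshold was also missed with each experiment fitted alone (edgeR adjusted p = 0.0647) and with limma on FPKM (adjusted p = 0.0600). It missed without PB-Ctrl replicate 1 (adjusted p = 0.179), PB-Ctrl replicate 2 (0.202), PB-CCN1 replicate 1 (0.178), PB-CCN1 replicate 2 (0.214), CcKO replicate 1 (0.118) or CcKO replicate 2 (0.115). Over PB-GPC4 it passed in 16 of 18, with misses without PB-CCN1 replicate 1 (0.0792) or replicate 2 (0.0539). Without PB-GPC4 replicate 1, Plk2 was called lower in PB-GPC4 than in PB-Ctrl (-0.33, adjusted p = 0.00513).

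**Figure D2:**
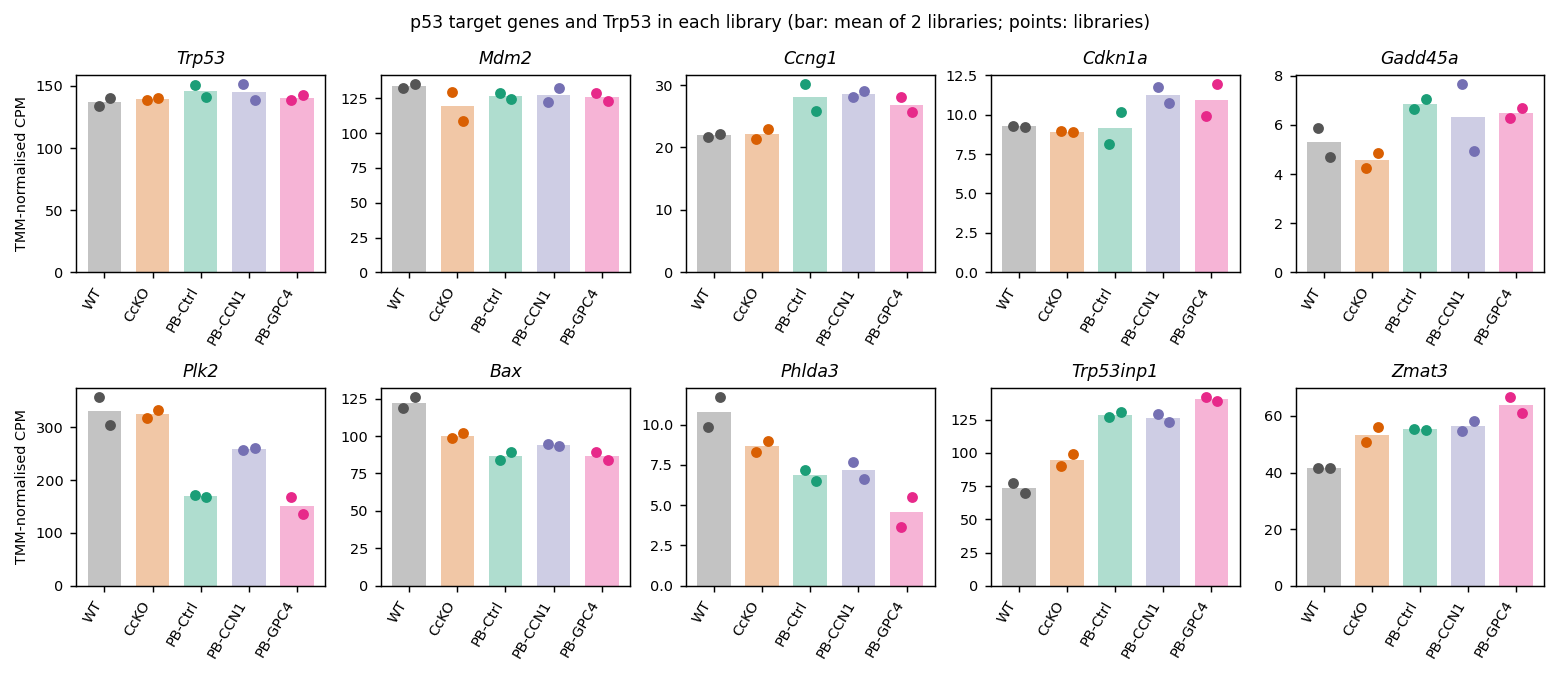
TMM-normalised CPM of the 10 genes in each library (points), with bars for the mean of the 2 libraries of each group and axes from 0. Trp53 is level across the 5 groups, and Plk2 in PB-CCN1 (257 and 260 CPM) stands above PB-Ctrl and PB-GPC4 (135 to 173 CPM). Both CcKO libraries lie above both WT libraries for Trp53inp1 and Zmat3, and below them for Bax, Mdm2, Phlda3 and Cdkn1a.

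Among the death genes, Bax encodes a protein that opens the outer mitochondrial membrane. Its level was 119 and 126 CPM in WT and 98.4 and 102 in CcKO, with both CcKO libraries lower. The log2 fold change was -0.29 (SE 0.06, edgeR adjusted p = 0.000269). The E15.5 level was 84.1 and 89.0 CPM with PB-Ctrl, 94.4 and 93.6 with PB-CCN1, and 89.1 and 84.3 with PB-GPC4. PB-CCN1 lay above the other 4 libraries by a log2 fold change of 0.12 over PB-Ctrl (95% interval -0.01 to 0.25, edgeR adjusted p = 0.474). PB-GPC4 overlapped PB-Ctrl. An annotated protein-coding gene on the same strand, Gm45808, shares 192 exon bases with Bax and was not found by name among the counted genes.

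Trp53inp1 encodes a nuclear protein that promotes p53 activity towards death genes and takes part in autophagy. Its level was 77.7 and 69.7 CPM in WT and 90.4 and 99.1 in CcKO, with both CcKO libraries higher. The log2 fold change was 0.36 (SE 0.06, edgeR adjusted p = 1.88e-05). At E15.5 it was 127 and 131 CPM with PB-Ctrl, 130 and 124 with PB-CCN1, and 142 and 139 with PB-GPC4, the last above the other 4 libraries without a call (0.12 over PB-Ctrl, 95% interval -0.002 to 0.25, adjusted p = 0.250).

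Phlda3 encodes a small protein that blocks AKT at the membrane and so withdraws a survival signal. It was at 9.86 and 11.7 CPM in WT and 8.31 and 8.98 in CcKO, both lower (log2 fold change -0.32, SE 0.19, edgeR adjusted p = 0.211). At E15.5 it was 7.18 and 6.52 CPM with PB-Ctrl, 7.71 and 6.64 with PB-CCN1, and 3.63 and 5.48 with PB-GPC4. Both PB-GPC4 libraries were below the other 4, by -0.58 against PB-Ctrl (SE 0.20, adjusted p = 0.0745), and PB-CCN1 exceeded PB-GPC4 by 0.65 (SE 0.20, adjusted p = 0.0802). The adjusted p-values miss the threshold. Without PB-GPC4 replicate 2, the lower level against PB-Ctrl was called (-0.91, adjusted p = 0.0397), and replicate 1, then alone in its group, held 93 reads. Without PB-GPC4 replicate 1 the log2 fold change was -0.32 against PB-Ctrl (adjusted p = 0.588), and PB-CCN1 exceeded PB-GPC4 by 0.39 (adjusted p = 0.619).

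Zmat3 encodes a zinc finger protein that binds RNA and acts on splicing downstream of p53. Its level was 41.6 CPM in both WT libraries and 50.9 and 55.9 in CcKO, both higher (log2 fold change 0.36, SE 0.08, edgeR adjusted p = 0.000366). At E15.5 it was 55.4 and 55.2 CPM with PB-Ctrl, 54.5 and 58.1 with PB-CCN1, and 66.6 and 61.2 with PB-GPC4. Both PB-GPC4 libraries were above the other 4, with a log2 fold change of 0.21 over PB-Ctrl (SE 0.08, adjusted p = 0.0932).

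To ask what loss of Ccn1 did to the set, CcKO was compared with WT. Of the 10 genes, 2 were called higher (Trp53inp1, Zmat3) and 2 lower (Bax, Mdm2). The members' median log2 fold change was -0.04. Of all 15371 genes tested, 30.6% were called in this comparison, with a median of 0.02, so a share of 4 in 10 is near the background. In bulk RNA of sorted cells, fewer cells of a type and less RNA per cell cannot be told apart.

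Gene length ran along with the direction of change in CcKO. In the tenth of tested genes with the shortest transcripts (28 to 994 bases), the median log2 fold change was -0.28, and in the tenth with the longest (6214 to 104320 bases) it was 0.33. Bax, at 869 bases the shortest member, sits in the former, and Zmat3, at 7784 bases the longest, in the latter. Trp53inp1 (5430 bases) sits in the tenth with a median of 0.20, and Mdm2 (3027 bases) in one with a median of 0.02.

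With a smooth trend over length and GC content removed from each library, Bax in CcKO against WT was at 0.03 (SE 0.06, edgeR adjusted p = 0.788) and Zmat3 at 0.04 (SE 0.08, adjusted p = 0.812). Trp53inp1 remained called higher (0.19, SE 0.06, adjusted p = 0.0266) and Mdm2 lower (-0.20, SE 0.06, adjusted p = 0.0217), and Trp53 was then called higher (0.15, SE 0.05, adjusted p = 0.0424). In that fit 3 of 10 members were called, beside 18.7% of all genes tested. The length decile medians in the comparisons at E15.5 lay between -0.04 and 0.03.

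**Figure D3:**
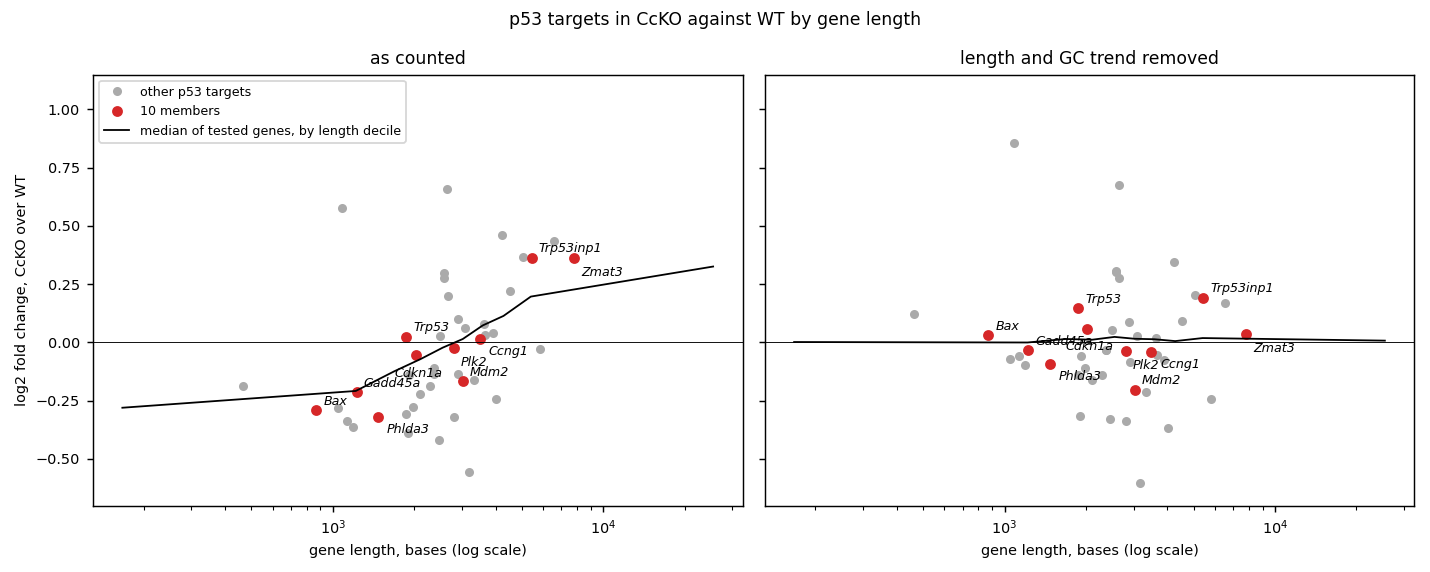
Log2 fold change of CcKO over WT against gene length (log axis) for the 10 genes (red) and other p53 targets (grey), as counted (left) and with the length and GC trend removed (right). The line joins the medians of tested genes grouped by length, which run from -0.28 to 0.33 as counted, and Bax and Zmat3 lie close to it in both panels.

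Of 34 further p53 targets tested, 3 were called higher and 6 lower in CcKO, with a median log2 fold change of -0.12. Of the 10 death genes among them 2 were called higher and 2 lower, a share near the 30.6% of all genes. Those for death included Apaf1, the core of the apoptosome (38.1 and 38.0 CPM in WT, 51.0 and 51.8 in CcKO, 0.43, SE 0.08, edgeR adjusted p = 2.92e-05), and Aen, an apoptotic nuclease (0.28, SE 0.10, adjusted p = 0.0259), both higher. Bbc3, which encodes the death protein PUMA (-0.28, SE 0.10, adjusted p = 0.0361), and Ei24 (-0.19, SE 0.07, adjusted p = 0.0423) were lower. Triap1, Ercc5, Fdxr and Fbxo22 were the other genes called lower and Susd6 the third called higher. Without WT replicate 2, all 6 genes called lower missed the threshold (adjusted p from 0.0871 for Ercc5 to 0.481 for Fdxr). Without CcKO replicate 1 it was missed by Bbc3 (0.0790), Ei24 (0.418), Triap1 (0.383) and Fbxo22 (0.0887). Without CcKO replicate 2 it was missed by Aen (0.308), Bbc3 (0.0990), Ercc5 (0.0996) and Fdxr (0.165). Aen (0.169) and Ei24 (0.150) missed it without WT replicate 1, and Ei24 (0.0546) without PB-GPC4 replicate 1. With the length and GC trend removed, no death gene was called lower. Of the 34 genes 1 was then called higher (Aen) and 2 lower, among them the repair nuclease gene Ercc5 (-0.37, edgeR adjusted p = 0.000257). In that fit 10.2% of all genes tested were called higher and 8.52% lower.

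Regulators of p53 were read next. Of 20 tested in CcKO against WT, 9 were called higher and 2 lower, with a median log2 fold change of 0.20, beside 17.6% of all genes tested called higher. Hipk2, a kinase that phosphorylates p53, was at 21.7 and 19.0 CPM in WT and 56.7 and 63.0 in CcKO (1.56, SE 0.08, edgeR adjusted p = 2.48e-19). Mdm4, the partner of MDM2 that binds and restrains p53, was at 46.8 and 39.2 CPM in WT and 85.3 and 72.0 in CcKO (0.87, SE 0.08, adjusted p = 3.09e-11). The acetyltransferase genes Crebbp (0.88, SE 0.05, adjusted p = 5.54e-17) and Ep300 (0.63, SE 0.06, adjusted p = 2.40e-12), whose products are coactivators of p53 and of many other factors, were higher too.

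For these 4 regulators the libraries of CcKO and WT did not overlap, and all 4 passed all 18 alternatives. They were named for the smallest adjusted p of their list in these same libraries, so neither adds separate support. With the trend removed they were still called, at 1.45 for Hipk2, 0.81 for Mdm4, 0.60 for Crebbp and 0.29 for Ep300. The counts over the list became 5 higher and 3 lower, beside 10.2% of all genes tested called higher and 8.52% lower. The list's median fell to 0.04, with 10 genes above 0 and 10 below. By contrast Atm, the kinase that signals DNA breaks to p53, went from 0.43 (adjusted p = 3.70e-06) to -0.03 (adjusted p = 0.791). Trp53 itself was not called as counted.

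Of 16 cell cycle genes that p21 is known to hold down, 7 were called higher in CcKO and 0 lower. Their median log2 fold change was 0.21, and of all genes tested 17.6% were called higher. The proliferation gene Mki67 was at 0.63 (SE 0.05, edgeR adjusted p = 8.84e-14), the replication gene Mcm5 at 0.31 (SE 0.07, adjusted p = 0.000546) and the cyclin gene Ccna2 at 0.36 (SE 0.09, adjusted p = 0.00163). With the trend removed the count was again 7 higher and 0 lower, beside 10.2% of all genes tested called higher, but Bub1b (adjusted p = 0.0838) and Mybl2 (0.0886) lost their calls while Plk1 (0.0151) and Ccnb2 (0.0168) gained one. Mki67 was at 0.22 (adjusted p = 0.000151). Ccna2 missed the threshold without WT replicate 2 (adjusted p = 0.0821) or CcKO replicate 2 (0.0716). Progenitor markers moved with them, 4 of 8 higher and 0 lower, at summed levels of 1015 to 1030 CPM in WT and 1089 to 1240 in CcKO. Of 9 neuronal markers 4 were called higher and 2 lower (8705 to 9101 and 9054 to 9163 CPM). Vascular markers (1 of 8 higher, 8.62 to 12.2 CPM in WT and 16.2 to 16.8 in CcKO) and erythroid markers (2 of 3 tested higher, 3.71 to 4.78 and 12.8 to 12.9 CPM) were at low levels in both groups. The part of these cells in the results was not tested.

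With PB-CCN1 against PB-Ctrl, 1 of the 10 genes was called (Plk2, higher), at a median of 0.03 for all 10. Of all genes tested 1.33% were called, with a median of 0.005. The other 9 members lay between -0.12 and 0.29, with adjusted p-values of 0.474 or more. Of the 34 further targets 0 were called higher and 1 lower, namely Ccng2, a relative of cyclin G1 that is also a target of FOXO factors (216 and 208 CPM with PB-Ctrl, 185 and 184 with PB-CCN1, log2 fold change -0.20, SE 0.05, edgeR adjusted p = 0.0339). That call passed in 10 of 18 alternatives, and missed without PB-Ctrl replicate 1 (0.410), PB-Ctrl replicate 2 (0.146), PB-CCN1 replicate 1 (0.208), PB-CCN1 replicate 2 (0.291) or PB-GPC4 replicate 1 (0.0564). Of 20 regulators tested 0 were called. Before adjustment, Plk2 was the only member with p under 0.05. Progenitor markers were called lower for 2 of 8 genes, at 1247 to 1263 CPM with PB-Ctrl and 1135 to 1151 with PB-CCN1. Interneuron markers were called lower for 1 of 8 (20.03 to 20.5 CPM against 13.22 to 13.45, median log2 fold change -0.68). The part of these cells in the results was not tested.

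With PB-GPC4 against PB-Ctrl, 0 of the 10 genes were called by edgeR, beside 7.01% of all genes tested. Before adjustment, 2 of them had an edgeR p under 0.05, Phlda3 and Zmat3, and DESeq2 and limma called 0 of the 10. The members' median log2 fold change was -0.03 and that of all genes -0.004. Of the 34 further targets 1 was called higher, Sesn2, a stress-induced inhibitor of mTORC1 (11.5 and 12.6 CPM with PB-Ctrl, 16.3 and 17.6 with PB-GPC4, 0.49, SE 0.15, adjusted p = 0.0332). Pidd1, which encodes a death domain protein, was called lower (22.1 and 25.8 against 18.3 and 17.8 CPM, -0.41, SE 0.12, adjusted p = 0.0243). Sesn2 missed the threshold without any one of the 4 libraries compared (adjusted p from 0.103 to 0.249). Pidd1 missed it without PB-Ctrl replicate 2 (0.372), PB-GPC4 replicate 1 (0.127) or PB-GPC4 replicate 2 (0.174), and with the trend removed (0.0537).

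Against PB-Ctrl, 3.65% of all genes tested were called higher in PB-GPC4 and 3.36% lower. Of the 20 regulators, 2 were called higher and 0 lower. These were Cop1, a ubiquitin ligase gene for p53 (0.30, SE 0.06, edgeR adjusted p = 0.00152), and the p53 relative Trp73, at 1.84 ± 0.179 against 0.571 ± 0.0442 CPM (SD, n = 2, log2 fold change 1.68, SE 0.49, adjusted p = 0.0269). Cop1 missed the threshold without PB-Ctrl replicate 2 (0.164) or PB-GPC4 replicate 2 (0.0568), and Trp73 without any one of the 4 libraries compared (0.0809 to 0.167). Progenitor markers were lower for 4 of 8 genes (1123 to 1128 CPM against 1247 to 1263), neuronal markers higher for 5 of 9 (9184 to 9319 against 8526 to 8662) and interneuron markers lower for 3 of 8 (11.85 to 12.7 against 20.03 to 20.5). Their part in the results was not tested.

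PB-CCN1 and PB-GPC4 were also set against each other, a comparison that shares its libraries with the 2 above. It called 1 of the 10 genes (Plk2, higher in PB-CCN1), at a median of 0.04, beside 2.53% of all genes tested and a median of 0.002. Of the further targets 0 of 34 were called, and of the regulators 0 of 20. Trp53inp1 was lower in both PB-CCN1 libraries than in both of PB-GPC4 (-0.15, SE 0.06, edgeR adjusted p = 0.221), as was Zmat3 (-0.18, SE 0.08, adjusted p = 0.238).

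**Figure D4:**
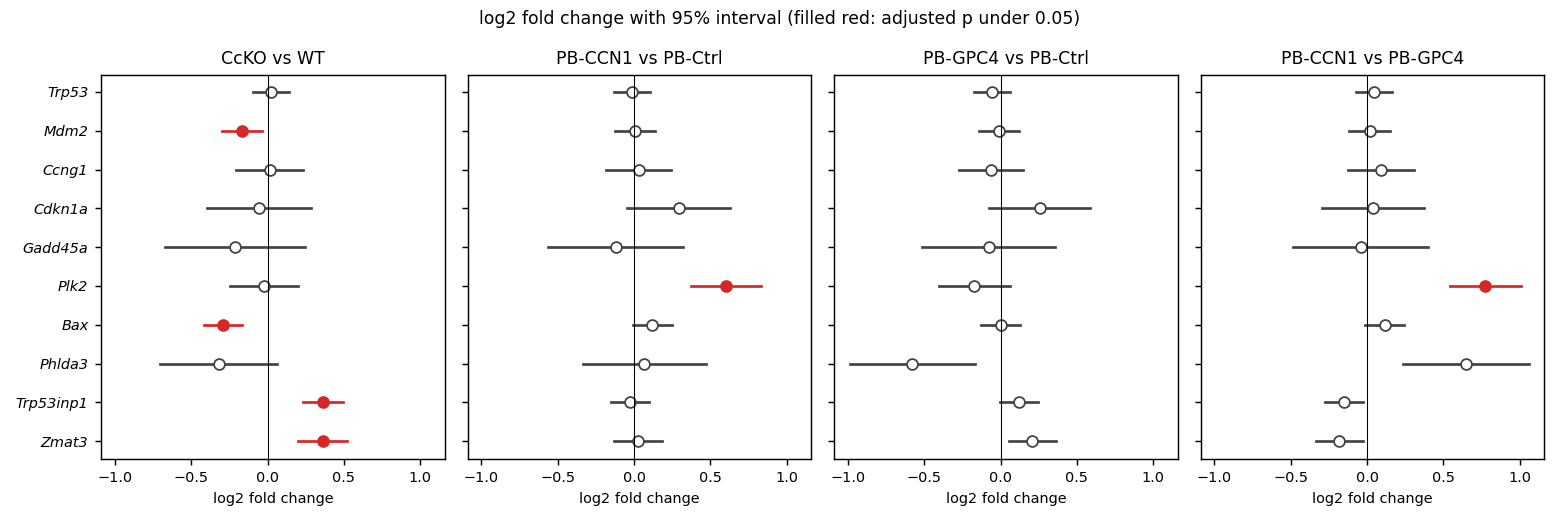
Log2 fold change (points) with 95% interval (lines) of the 10 genes in the 4 comparisons, with filled red points for an edgeR adjusted p under 0.05. The called points are 4 in CcKO against WT and Plk2 in both comparisons that hold PB-CCN1, and Trp53 sits at 0 in every panel, within -0.06 to 0.05.

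Because Plk2 is also a gene of the activity response, it was set beside 15 immediate-early genes. Such genes are switched on within minutes by calcium and growth factor signals. Against PB-GPC4, PB-CCN1 was called higher for 7 of the 15 and lower for 0, with a median log2 fold change of 0.36, beside 1.53% of all genes tested called higher. Npas4 was at 16.0 and 13.6 CPM with PB-CCN1 and 7.21 and 6.99 with PB-GPC4 (1.06, SE 0.12, edgeR adjusted p = 1.35e-07). Nr4a1 was at 22.1 and 22.6 against 11.7 and 10.7 (1.00, SE 0.12, adjusted p = 1.88e-07). Fosb was at 207 and 206 against 140 and 117 (0.69, SE 0.07, adjusted p = 9.06e-06). These 3 passed all 18 alternatives, but were named for their small adjusted p in these same libraries, so this adds no separate support. With the length and GC trend removed 5 of the 15 were called higher, beside 1.45% of all genes tested. Without PB-CCN1 replicate 1 the other 4, Fos (adjusted p = 0.207), Jun (0.101), Ier2 (0.0646) and Dusp1 (0.185), missed the threshold. Without PB-GPC4 replicate 2 it was missed by Jun (0.0960), Ier2 (0.0501) and Dusp1 (0.0651), and Dusp1 also missed without PB-GPC4 replicate 1 (0.0756). Fos missed it without PB-CCN1 replicate 2 (0.114), CcKO replicate 1 (0.0783) or CcKO replicate 2 (0.0755) as well.

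Against PB-Ctrl, PB-CCN1 was called higher for 0 of the 15 and lower for 4, with a median log2 fold change of -0.15, among them Jun (469 and 464 CPM with PB-Ctrl, 353 and 346 with PB-CCN1, -0.42, SE 0.07, edgeR adjusted p = 0.00128). Of all genes tested 0.852% were called lower there. Without PB-Ctrl replicate 2 or either PB-CCN1 library, the other 3, Junb, Egr2 and Atf3, missed the threshold. Egr2 and Atf3 also missed it without PB-Ctrl replicate 1. In these fits the log2 fold changes were -0.547 to -0.315 for Junb, -2.09 to -1.69 for Egr2 and -1.74 to -1.40 for Atf3. Egr2 missed the threshold with the replicate block too (edgeR adjusted p = 0.0565). With limma on FPKM all 4 missed it, Jun among them (limma adjusted p from 0.0600 to 0.174). PB-GPC4 was called lower for 9 of the 15 and higher for 0, with a median of -0.63, beside 3.36% of all genes tested called lower. Npas4 in PB-Ctrl was at 16.2 and 16.5 CPM, near its level in PB-CCN1, and the same held for Nr4a1 at 22.9 and 23.6 CPM. Whether Plk2 and these genes differ in their response was not tested.

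**Figure D5:**
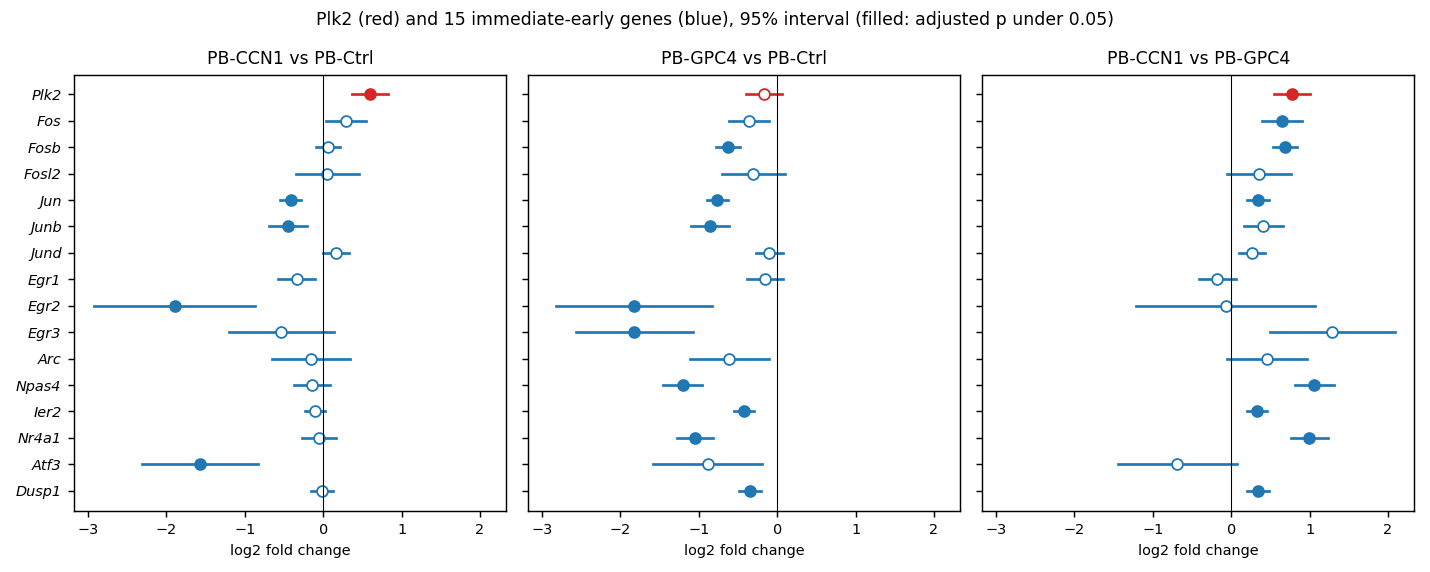
Log2 fold change with 95% interval of Plk2 (red) and 15 immediate-early genes (blue) in the 3 comparisons at E15.5, filled where the edgeR adjusted p is under 0.05. Plk2 lies to the right of 0 at 0.60 in the first panel where 4 of the 15 are filled to the left, at -0.17 in the second where 9 are filled to the left, and at 0.77 in the third where 7 are filled to the right.

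Across the experiments, which differ in strain, age and electroporation day, group means at E17.5 and E15.5 are given without a test. Plk2 was at 331 ± 37.8 CPM in WT and 171 ± 2.92 in PB-Ctrl (SD, n = 2), and Bax at 122 ± 5.02 and 86.6 ± 3.47. Trp53inp1 was at 73.7 ± 5.64 CPM in WT and 129 ± 2.57 in PB-Ctrl, and Zmat3 at 41.6 ± 0.0516 and 55.3 ± 0.176. Trp53 was at 137 ± 4.81 and 146 ± 6.84 CPM.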

How the data were processed

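mRNA was measured in 10 libraries, 5 groups of 2. Per the submitters' processing notes, the build was mm10 and the tools were featureCounts, HISAT2, Trimmomatic and bcl2fastq. Roles, versions and use of strand are not given in the sources used here. The authors deposited whole-number counts per Entrez gene ID, and FPKM, which scales those counts by gene length and library total. Names came from RefSeq for 25274 IDs and GENCODE M21 for 18, and 1886 stayed unnamed. Between 72.2% and 74.5% of counts of 1 to 20 were even, so reads of a pair appear to have been counted singly and intervals from counting error would be too narrow. Total counts were between 22505945 and 30825498. Replicates differed by more than counting error (chi-square per degree of freedom 3.41 to 9.10).

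Counts were tested with edgeR 4.0.16 (R 4.3.3): TMM, filterByExpr (15371 genes kept), 5 group means over all 10 libraries, robust quasi-likelihood F-tests with 5 residual degrees of freedom, Benjamini-Hochberg adjustment over all genes tested and a threshold of 0.05. The SE was the log2 fold change over the root of F. Levels are TMM-scaled CPM. Alternatives were no filter, relative log expression size factors, a replicate block, each experiment alone, a lowess trend (span 0.3) over length and GC (known for 90.4% of tested genes) removed as an offset, each library left out, DESeq2 1.42.0, limma 3.58.1 on log2 of FPKM plus 1, and, added after seeing the data, non-robust edgeR.

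The members and lists were chosen with earlier results of these data known. Named were all 10 members, Ccn1 and Gpc4, and from each other list and comparison at most the 4 called genes with the smallest adjusted p. Atm and genes beyond 4 named for a lost or gained call (Fos, Jun, Dusp1, Mybl2, Plk1 and Ccnb2) were named after their values were seen. Same-numbered libraries did not deviate together (r between -0.068 and 0.018), so the numbers were not taken as pairs.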

Additional observations from a re-analysis of the deposited data

How the results depend on the processing

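Of 720 member log2 fold changes over the alternatives, 1 reversed a called direction: Bax in CcKO against WT, at 0.031 (adjusted p = 0.788) with the length and GC trend removed. Genes called in CcKO against WT went from 4711 to 2872 with that trend removed. With each experiment fitted on its own, the counts of genes called were 648 against 205 for PB-CCN1 over PB-Ctrl, 2131 against 1077 for PB-GPC4 over PB-Ctrl and 1080 against 389 for PB-CCN1 over PB-GPC4, and the members called were 0, 2 (Phlda3 and Zmat3) and 3 (Plk2, Phlda3 and Trp53inp1). Limma on FPKM called 34, 341 and 76 genes in the same order, and 0 members for PB-CCN1 over PB-Ctrl. Without a filter, PB-CCN1 over PB-GPC4 gave 598 genes and PB-GPC4 over PB-Ctrl 1 member (Zmat3). With the trend removed, members called were 0 for PB-CCN1 over PB-Ctrl and 1 (Zmat3) for PB-GPC4 over PB-Ctrl. Leaving out 1 library gave 3057 to 4654 genes for CcKO against WT, 65 to 322 for PB-CCN1 over PB-Ctrl, 361 to 1579 for PB-GPC4 over PB-Ctrl and 77 to 678 for PB-CCN1 over PB-GPC4. Members called were then 3 to 4, 0 to 1, 0 to 1 and 0 to 1. The lone library of a group was assumed to vary like the others.

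With the replicate block the genes called were 4642, 201, 1018 and 376 and the members 4, 1, 0 and 1, so it changed none of these member counts; Ccng2 in PB-CCN1 over PB-Ctrl lost its call (adjusted p = 0.0510). In all, 644 of the 720 member values kept direction and side of the threshold. Another 44 changed direction without a call in either fit, 22 lost a call and 9 gained one. The cause of these shifts was not tested. Depth limits Gadd45a, Phlda3 and Cdkn1a most, at 93 to 364 reads per library.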

Other observations

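Of 17 paralogs of the p53 targets tested, 3 were called higher and 1 lower in PB-GPC4 against PB-Ctrl, beside 7.01% of all genes tested. Cdkn1b, which encodes the CDK inhibitor p27, was at 287 ± 9.34 CPM in PB-Ctrl and 342 ± 1.94 in PB-GPC4 (SD, n = 2, log2 fold change 0.25, SE 0.05, edgeR adjusted p = 0.000646). Gadd45g was higher (0.31, SE 0.07, adjusted p = 0.00386) and Gadd45b lower (-0.97, SE 0.28, adjusted p = 0.0240), while Gadd45a was not called. These calls were lost without PB-Ctrl replicate 2 for Cdkn1b (adjusted p = 0.0541), Gadd45g (0.114) and Gadd45b (0.113), without PB-GPC4 replicate 2 for Gadd45g (0.0540) and Gadd45b (0.348), and without PB-Ctrl replicate 1 for Gadd45b (0.182). In CcKO against WT, 2 of the 17 were called higher, Mdm4 and Mcl1 (0.22, SE 0.05, adjusted p = 0.00162), and 2 lower, Gadd45g (-0.41, adjusted p = 3.62e-05) and Cdkn1c (-0.25, adjusted p = 0.00426), beside 30.6% of all genes tested. With the length and GC trend removed 4 were called higher and 0 lower, beside 10.2% and 8.52% of all genes tested. Gadd45g and Cdkn1c were then at -0.13 and -0.10 and no longer called. Cdkn1c also missed the threshold without WT replicate 2 (log2 fold change -0.22).

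Genes of the integrated stress and unfolded protein responses, which raise amino acid supply and protein folding, were called higher for 7 of 12 in PB-GPC4 and 3 of 12 in PB-CCN1, and lower for 0 in both, beside 3.65% and 0.481% of all genes called higher. These comparisons share the PB-Ctrl libraries. The 3 in PB-CCN1 were Asns, Herpud1 and Hspa5: Asns missed the threshold without any one of the 4 libraries compared (adjusted p from 0.121 to 0.389) and with DESeq2 (0.0606), Herpud1 without PB-Ctrl replicate 1 (0.507) or either PB-CCN1 library (0.115 and 0.163), and Hspa5 without PB-Ctrl replicate 2 (0.0917). Herpud1 was at 44.6 ± 4.96 CPM in PB-Ctrl, 57.2 ± 0.651 in PB-CCN1 and 71.8 ± 6.67 in PB-GPC4, and PB-CCN1 was lower than PB-GPC4 (-0.33, SE 0.08, edgeR adjusted p = 0.0157). That difference missed the threshold without PB-CCN1 replicate 1 (0.173), PB-CCN1 replicate 2 (0.0980) or PB-GPC4 replicate 2 (0.335). The chaperone gene Hspa5 was at 463 ± 5.34, 549 ± 0.836 and 583 ± 3.32 CPM. Asns, the asparagine synthetase gene, was at 26.0 ± 0.903, 34.4 ± 1.91 and 39.2 ± 3.47 CPM. Sesn2, the p53 target called higher in PB-GPC4, is also known as a target of ATF4, the factor at the centre of this response. In CcKO against WT, 4 of the 12 were called lower, beside 2005 of 15371 genes tested, among them Asns (-0.36, SE 0.11, adjusted p = 0.00883). Without CcKO replicate 1 all 4 missed the threshold, at log2 fold changes of -0.21 for Asns, -0.23 for Ddit3, -1.01 for Trib3 and -0.46 for Chac1. All but Asns missed it without WT replicate 2, at -0.065 for Ddit3, -0.76 for Trib3 and -0.72 for Chac1. With the length and GC trend removed 1 of the 12 was called lower, beside 8.52% of all genes tested.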
